A study of Mus musculus with 4 samples.

Results

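The Hox genes encode homeodomain transcription factors that set position along the body axis, and in mammals they lie in 4 clusters, HoxA to HoxD. In blood, genes of the HoxA and HoxB clusters are active in stem and progenitor cells and are shut down as the cells mature. Their activity is maintained by the histone methyltransferase MLL, and fusions such as MLL-AF9 are known to keep the HoxA genes Hoxa7, Hoxa9 and Hoxa10 and their cofactor gene Meis1 active in leukaemia. The members described here are the 39 protein-coding genes whose symbols are Hox followed by a, b, c or d and a number, taken by name from 21887 protein-coding genes of the RefSeq table of GRCm38.p6, whose coordinates are those of mm10. HoxA holds 11 of them, HoxB 10, HoxC 9 and HoxD 9. The span of a cluster runs from its first to its last gene plus 20 kb on each side.

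Chromatin was profiled by CUT&Tag, in which an antibody, here against the AAA+ ATPase Ruvbl2, directs a transposase to the sites it binds. Haematopoietic stem cells (HSC, the CD48-negative, CD150-positive part of the LSK gate) came from bone marrow of Nup214fl/+ mice. Leukaemia stem cells (LSC, gated as Lin-, Sca-1-, c-Kit+, CD16/32+ and CD34+) came from mice of the same genotype with leukaemia driven by MLL-AF9, so both groups carry 1 floxed Nup214 allele. Each group has 2 libraries from 2000 to 5000 sorted cells, and the labels give neither the ages of the mice, nor how MLL-AF9 was introduced, nor whether the libraries came from separate animals. The LSC gate also describes granulocyte-monocyte progenitors. The labels name a goat anti-rabbit secondary antibody and no host for the Ruvbl2 antibody, and no control library was used here, so the dependence of the peaks on Ruvbl2 was not tested.

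In the order HSC 1, HSC 2, LSC 1 and LSC 2, the peak lists were 161655, 286107, 216077 and 210541 entries long. They state no number of reads, so the sequencing depth is unknown. The fold given for a peak is the authors' ratio of its summit pileup to that library's background. It describes that peak within its own list and was not compared between libraries. Summit pileups are not in the lists and were inferred from the fold, taken as a ratio with 1 added to both pileup and background. The weakest deposited peaks had inferred summit pileups of 14 to 18 overlapping fragments. Peaks among the 20000 strongest of a library are called listed below. Their lowest folds were 22.7 and 12.7 in the HSC and 28.4 and 18.2 in the LSC libraries. Peak presence did not mark cell identity. In that order of libraries, 8, 9, 7 and 9 of 9 stem cell genes carried a peak. So did 8, 9, 7 and 9 of 9 granulocyte-monocyte genes and 14, 12, 14 and 13 of 16 genes of other lineages. Of all protein-coding genes 73.0, 85.0, 79.4 and 82.4% did. Listed peaks lay at 2, 4, 3 and 4 of the stem cell genes, 5, 7, 5 and 5 of the granulocyte-monocyte genes and 2, 3, 6 and 5 of the others. The listed shares of all genes were 30.2, 41.2, 32.3 and 41.2%.

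The first question was how many Hox genes carried a peak at all. A peak of any strength lay within the gene body plus 1 kb flanks at 14 of 39 Hox genes (35.9%) in HSC replicate 1 and at 27 (69.2%), 20 (51.3%) and 21 (53.8%) in HSC 2, LSC 1 and LSC 2. The percentages over all protein-coding genes were 73.0, 85.0, 79.4 and 82.4 in the same order, so the Hox share was the lower one in every library. Hox genes are short, however, with a median window of 5.74 kb beside 19.2 kb for all genes. Per 100 kb of gene window the Hox genes held 8.84, 13.3, 9.14 and 7.66 peaks, beside 6.98, 12.9, 9.88 and 9.67 over all genes. The ratio of Hox to all genes was 1.27 and 1.02 in the HSC libraries and 0.925 and 0.792 in the LSC libraries. The groups did not overlap. No background share was taken for this measure. For another measure, the relative density of single 150-kb tiles of the genome, 17.8% of tiles had no overlap with HSC higher. An exact permutation test of the Hox ratio, 2 against 2 libraries, gave p = 0.33, two-sided, the smallest value it can give.

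Windows of 1 kb on each side of both annotated gene ends have a like length in every gene and were added after the data were seen. By that measure 10 (25.6%), 20 (51.3%), 13 (33.3%) and 16 (41.0%) Hox genes had a peak in HSC 1, HSC 2, LSC 1 and LSC 2. Over all protein-coding genes the percentages were 38.2, 64.5, 47.6 and 58.8. Exact binomial 95% intervals of the Hox shares were 13 to 42.1%, 34.8 to 67.6%, 19.1 to 50.2% and 25.6 to 57.9%. The Hox share was lower than that of all genes in 4 of 4 libraries, and its interval excluded the all-gene value in LSC replicate 2. Intervals cover counting error only, and neighbouring Hox genes can share a peak.

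Listed peaks lay there at Hoxa3 and Hoxa7 in HSC replicate 1 (2 of 39, 5.13%) and at 0 of 39 Hox genes in each of the other 3 libraries, for which the exact binomial 95% upper limit is 9.03% and the limit of 3 counts is 7.69%. Of all protein-coding genes 10.6, 25.1, 11.0 and 25.5% had a listed peak at an end. With the gene body included, listed peaks lay at 4, 1, 4 and 0 Hox genes, beside 30.2, 41.2, 32.3 and 41.2% of all genes, whose windows are longer. Per 100 kb of gene window the Hox genes held 1.18, 0.295, 1.18 and 0 listed peaks, beside 0.978, 1.21, 1.05 and 1.21 over all genes. By length, the Hox value was thus above that of all genes in both replicate 1 libraries and below it in both replicate 2 libraries, on counts of 4, 1, 4 and 0 peaks. The members with one were Hoxa3, Hoxa7, Hoxa10 and Hoxd3 in HSC replicate 1, Hoxd3 in HSC replicate 2, and Hoxa3, Hoxb3, Hoxb6 and Hoxc4 in LSC replicate 1. No listed peak lay at 32 of the 39, beside 35.6% of all genes, shares that window length also sets, and 0 of 39 had one in both LSC libraries alone, beside 2.35%.

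By library, 5 Hox genes had a peak of some strength in all 4 (Hoxa3, Hoxa10, Hoxb3, Hoxc4 and Hoxd3), 8 in 3, 14 in 2, 10 in 1, and 2 in none (Hoxc8 and Hoxd1). Over all genes, 61.2% had a peak in all 4 libraries and 5.67% in none. The 3 paralogue group 3 genes among the 5 are long (44009, 40830 and 36279 bp for Hoxa3, Hoxb3 and Hoxd3). The paralogue number runs from 1 at the end of the cluster active in the head region to 13 at the end active in the tail and limb tips. Genes of groups 1 to 3 had a peak at 4, 6, 3 and 5 of 8 genes, groups 4 to 8 at 3, 9, 10 and 8 of 15, and groups 9 to 13 at 7, 12, 7 and 8 of 16, by library in the same order. No part of the clusters was the highest in every library. These differences between paralogue groups were not tested.

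**Figure D1:**
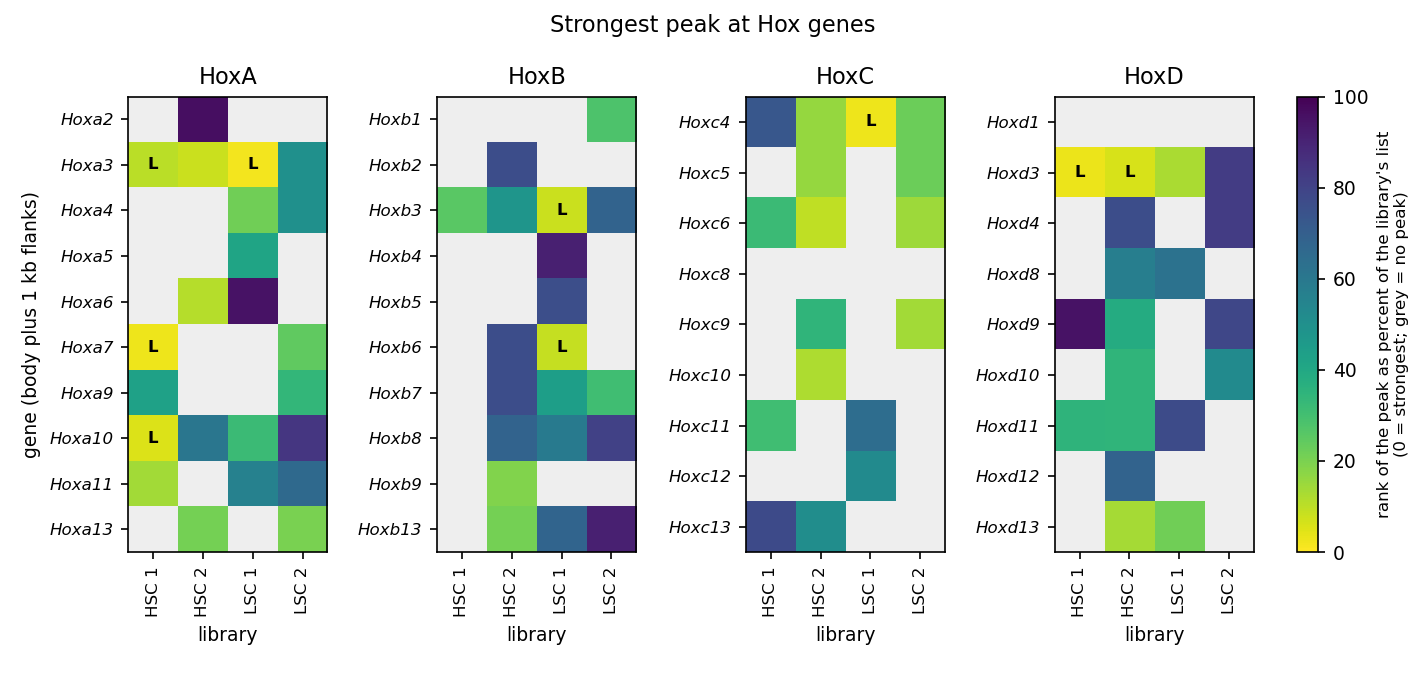
Strongest deposited peak at Hox genes (rows, by cluster and paralogue number) in the libraries HSC 1, HSC 2, LSC 1 and LSC 2 (columns). Colour gives the rank of that peak as a percentage of the library's list, grey means no peak, and L marks genes with a listed peak, which number 4, 1, 4 and 0 by library.

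Start sites were looked at next, because many Hox promoters lie in CpG-rich DNA. Such DNA is bound by MLL when active and by Polycomb complexes when silent. RefSeq promoter windows of 300 bases, from 250 before to 50 after a start, were matched by symbol for 22 of the 39 genes, in 24 windows. Among those with no entry were Hoxa4, Hoxb2, Hoxb3, Hoxb5, Hoxb6, Hoxb7, Hoxb9, Hoxb13, Hoxc5, Hoxc6, Hoxc8, Hoxc9, Hoxc10, Hoxc11, Hoxc12 and Hoxc13. With 56.4% of the members matched, a check of base composition over the Hox genes as a set is void, and the values below hold for the matched windows, most of which belong to HoxA and HoxD.

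A deposited peak overlapped 2 of the 24 Hox windows in either HSC library (8.33%, exact binomial 95% interval 1.03 to 27.0%), 1 in LSC replicate 1 (4.17%, 0.105 to 21.1%) and 3 in LSC replicate 2 (12.5%, 2.66 to 32.4%). Over 21263 promoter windows of protein-coding genes the percentages were 13.6, 34.9, 16.9 and 33.0. Both replicate 2 libraries thus had Hox shares whose interval lay below the all-promoter value, and in both replicate 1 libraries the interval included it. Promoters with an observed over expected CpG ratio of at least 0.6 and at least 50% GC carried a peak in 19.4, 50.7, 24.3 and 49.6% of 9600 cases. Only 11 of the 24 Hox windows fell in that class, and 2, 0, 0 and 1 of these did.

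**Figure D2:**
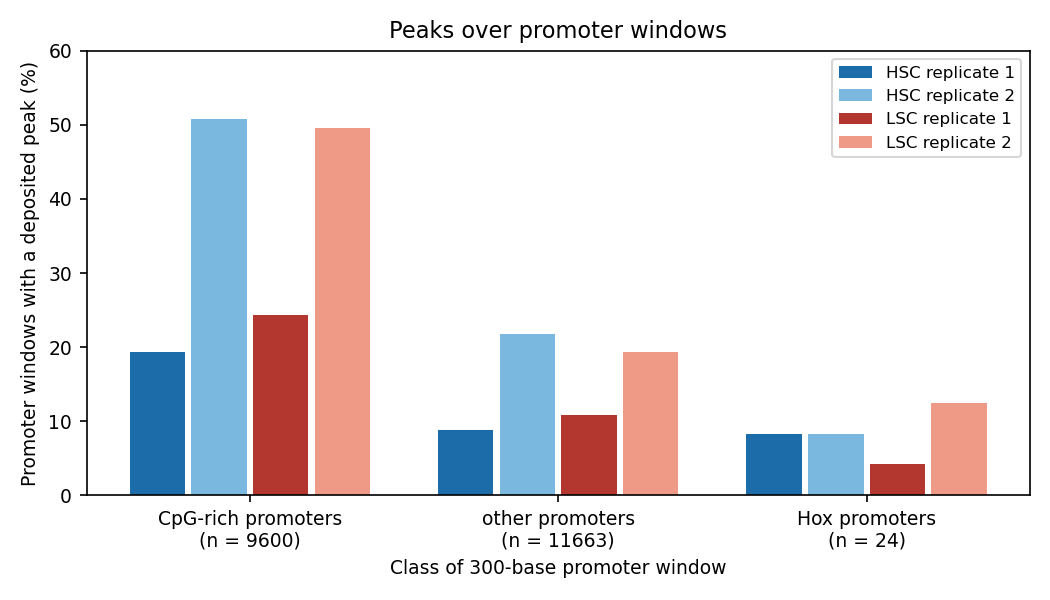
Share of 300-base promoter windows overlapped by a deposited peak (y axis, percent) for CpG-rich promoters, other promoters and the 24 matched Hox windows (x axis), with 1 bar per library. The Hox bars reach 4.17 to 12.5%, below both other classes in each of the 4 libraries.

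The Hox windows with a peak belonged to Hoxa10 (HSC replicate 1 and LSC replicate 2), its second start (LSC replicate 2), Hoxa3 (HSC replicate 1), Hoxb4 (LSC replicate 1), Hoxd4 (HSC replicate 2) and Hoxd9 (HSC replicate 2 and LSC replicate 2). Sequences are shown for Hoxa10 and Hoxd9, found in 2 libraries each, for Hoxa3, whose peak, like that of Hoxa10 in HSC replicate 1, was listed, and, for contrast, for Hoxa9 and Hoxa13, which had no peak over the window in any library. All are from RefSeq (GRCm38.p6), 5′ to 3′ on the gene's strand, with CG dinucleotides in capitals. The windows are chr6:52234890-52235189 for Hoxa10, chr2:74697513-74697812 for Hoxd9, chr6:52213018-52213317 for Hoxa3, chr6:52227321-52227620 for Hoxa9 and chr6:52260831-52261130 for Hoxa13, on the minus strand except for Hoxd9.
Hoxa10: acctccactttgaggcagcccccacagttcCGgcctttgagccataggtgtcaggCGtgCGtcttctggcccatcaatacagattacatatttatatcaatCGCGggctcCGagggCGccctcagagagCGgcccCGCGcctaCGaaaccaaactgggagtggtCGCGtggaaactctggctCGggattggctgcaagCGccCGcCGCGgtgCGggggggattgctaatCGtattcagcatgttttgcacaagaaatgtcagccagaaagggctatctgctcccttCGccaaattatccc
Hoxd9: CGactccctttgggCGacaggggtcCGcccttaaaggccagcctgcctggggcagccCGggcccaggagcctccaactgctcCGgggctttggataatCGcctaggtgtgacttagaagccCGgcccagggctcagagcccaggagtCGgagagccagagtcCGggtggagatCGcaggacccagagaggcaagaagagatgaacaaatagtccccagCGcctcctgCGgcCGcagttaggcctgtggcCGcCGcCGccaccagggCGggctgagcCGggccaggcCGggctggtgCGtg
Hoxa3: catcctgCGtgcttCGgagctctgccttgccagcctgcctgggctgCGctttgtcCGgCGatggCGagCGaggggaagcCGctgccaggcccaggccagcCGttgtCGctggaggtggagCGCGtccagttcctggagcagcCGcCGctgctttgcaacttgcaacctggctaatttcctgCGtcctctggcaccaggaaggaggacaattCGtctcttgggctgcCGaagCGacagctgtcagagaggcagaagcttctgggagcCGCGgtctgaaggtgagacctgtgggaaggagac
Hoxa9: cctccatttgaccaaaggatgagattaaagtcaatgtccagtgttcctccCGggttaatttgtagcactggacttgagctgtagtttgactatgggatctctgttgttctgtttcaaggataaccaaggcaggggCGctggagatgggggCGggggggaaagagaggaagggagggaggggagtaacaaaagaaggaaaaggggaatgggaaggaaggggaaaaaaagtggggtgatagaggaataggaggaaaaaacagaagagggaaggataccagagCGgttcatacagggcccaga
Hoxa13: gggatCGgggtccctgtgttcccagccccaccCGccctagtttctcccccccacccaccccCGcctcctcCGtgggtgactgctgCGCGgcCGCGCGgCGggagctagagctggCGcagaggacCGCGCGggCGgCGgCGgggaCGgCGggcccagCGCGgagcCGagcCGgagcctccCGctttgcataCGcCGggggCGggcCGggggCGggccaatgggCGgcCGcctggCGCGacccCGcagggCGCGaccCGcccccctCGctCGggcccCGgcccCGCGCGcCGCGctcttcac
These windows hold 21, 20, 20, 4 and 45 CG dinucleotides in that order, counted on 1 strand, where CG reads the same on the other. As many as 45 occur in 2.48% of all promoter windows, at least 20 in 35.9% and at least 4 in 76.1%. The window richest in CG, that of Hoxa13, and the poorest of these, that of Hoxa9, were both chosen for having no peak. No relation of CG content to peaks can therefore be read from them.

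The clusters were then compared as whole spans. HoxA (chromosome 6, 52135367 to 52280880 of mm10, 146 kb) held 18 and 14 peaks in the HSC libraries and 19 and 14 in the LSC libraries. HoxB (chromosome 11, 96174316 to 96388254, 214 kb) held 9, 20, 24 and 15. HoxC (chromosome 15, 102901131 to 103056856, 156 kb) held 9, 16, 8 and 13, and HoxD (chromosome 2, 74648225 to 74785142, 137 kb) held 6, 23, 11 and 7. At the mean density of each library the 4 spans together would hold 208 peaks over the 4 libraries, and they held 226.

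Because the lists differ in length, densities were divided by the genome mean of the same library. This relative density was 2.11, 0.919, 1.66 and 1.25 for HoxA, with a mean of 1.49 ± 0.51 (SD, n = 4). HoxB had 0.717, 0.893, 1.43 and 0.914 (mean 0.988 ± 0.306), HoxC 0.984, 0.982, 0.654 and 1.09 (mean 0.927 ± 0.189) and HoxD 0.746, 1.60, 1.02 and 0.666 (mean 1.01 ± 0.42), in the same order of libraries. HoxA was thus above the genome mean in 3 of 4 libraries, and the means of the other clusters lay at about 1. The middle 90% of 150-kb tiles of the genome ran from 0.341 to 1.93 and 0.318 to 1.91 for the HSC libraries and from 0.254 to 2.04 and 0.261 to 2.09 for the LSC libraries. The HoxA value in HSC replicate 1 lay above that range, and the other 15 values of cluster and library lay inside it. The count of 18 behind it, singled out after the values were seen, has an exact Poisson 95% interval of 10.7 to 28.4, beside 8.54 at the genome mean. The interval of HoxD in HSC replicate 2 (23 peaks, 14.6 to 34.5) also lay above its genome mean of 14.3. That of HoxA in LSC replicate 1 (19 peaks, 11.4 to 29.7) began at its genome mean of 11.4. These intervals cover counting error only and were not adjusted for the number of values.

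HoxA exceeded HoxB by 0.498 ± 0.609 (SD of the within-library differences, n = 4) and did so in 4 of 4 libraries. It exceeded HoxC by 0.558 ± 0.594 and HoxD by 0.475 ± 0.851, each in 3 of 4. An exact permutation test of the within-library differences, two-sided, gave p = 0.13, 0.250 and 0.500, or 0.375, 0.375 and 0.500 after Benjamini-Hochberg adjustment over the 3 pairs. With 4 libraries this test cannot go below 0.13, so a difference of HoxA from the other clusters is not shown at 0.05. Without HSC replicate 1 the differences were 0.200, 0.370 and 0.180. Set beside 500 kb on either side, HoxA had 2.03, 0.953, 1.12 and 1.36 times the density of its surroundings, HoxB 0.546, 0.645, 1.03 and 0.632 times, HoxC 0.696, 0.642, 0.418 and 0.745 times and HoxD 0.743, 1.46, 0.956 and 1.02 times. HoxC was below its surroundings in all 4 libraries, and HoxB in 3.

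**Figure D3:**
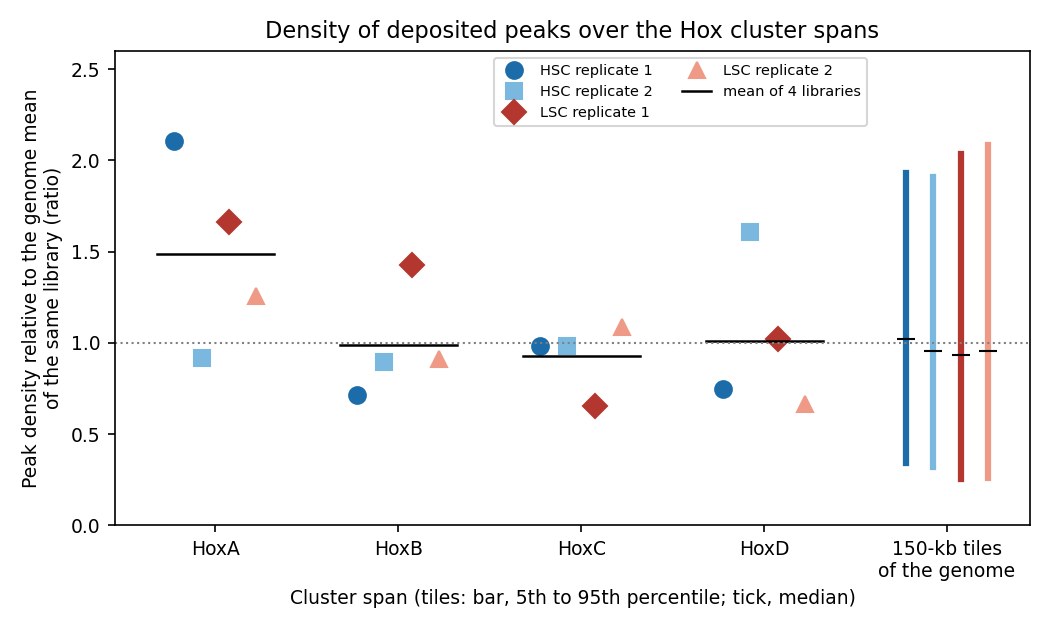
Peak density of each Hox span relative to the genome mean of the same library (y axis, ratio) by cluster (x axis), 1 point per library with the mean of the 4 as a black line, and the 5th to 95th percentile of 150-kb tiles at the right. HoxA points run from 0.919 to 2.11 and those of the other clusters from 0.654 to 1.60.

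Of listed peaks, the spans held 17 over the 4 libraries, beside 19.2 at the genome mean. HoxA had 9 of them (4, 0, 2 and 3 by library) beside 4.28 at the genome mean, HoxB 4 (0, 1, 3 and 0) beside 6.29, HoxC 2 (both in LSC replicate 1) beside 4.58, and HoxD 2 (1 in each HSC library) beside 4.02. Over all peaks of the spans the median fold was 12.7, 5.61, 10.9 and 8.89, beside 13.1, 5.99, 11.3 and 8.89 over the whole lists. The median Hox peak was thus close to, and in 3 libraries below, that of its library.

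For LSC against HSC, the relative density of HoxA averaged 1.51 ± 0.84 in HSC and 1.46 ± 0.29 in LSC (SD, n = 2 each), a difference of -0.06 that lay within the spread of either group. HoxC (0.983 and 0.871) and HoxD (1.18 and 0.844) also had overlapping groups. HoxB averaged 0.805 ± 0.12 in HSC and 1.17 ± 0.36 in LSC without overlap, which holds with LSC higher for 15.2% of all genome tiles, and the nearest libraries, HSC replicate 2 and LSC replicate 2, had 0.893 and 0.914. Exact permutation p-values were 1, 0.33, 1 and 0.667 for HoxA to HoxD, all 1 after Benjamini-Hochberg adjustment over the 4 clusters. The test cannot go below 0.33 with 2 libraries a group. Leaving out a library turned the sign for HoxA (0.54 without HSC replicate 1 and 0.15 without LSC replicate 2), HoxC (0.11 without LSC replicate 1) and HoxD (0.10 without HSC replicate 2), and the difference for HoxB was 0.11 without LSC replicate 1. No difference in peak density at the Hox clusters between the cell types was thus detectable in these libraries.

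In the HoxA cluster, Hoxa9 encodes the transcription factor most closely tied to MLL-fusion leukaemia. Hoxa9 (chromosome 6, 52223097 to 52227370) had 2 peaks each in HSC replicate 1 (strongest fold 14.2, rank 68402) and LSC replicate 2 (strongest fold 10.6, rank 70678), and 0 in either of the other libraries. The libraries with a peak were thus 1 of each cell type, and none of the peaks was listed. Hoxa10 (52231197 to 52240854), a posterior HoxA factor of progenitors and leukaemia, had a peak in every library, with folds of 34.4, 5.24, 15.6 and 5.51 and ranks of 8500, 173197, 68366 and 175905. The peak in HSC replicate 1 lay over its promoter window and was the only listed one. Hoxa7 (52215623 to 52218573), another known MLL-fusion target, had 2, 0, 0 and 1 peaks. Those of HSC replicate 1 (fold 43.2, rank 4153) and LSC replicate 2 (fold 12.1, rank 50706) overlapped at 52214441 to 52214822, between Hoxa3 and Hoxa7.

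The only HoxA site with listed peaks in more than 1 library lay between genes. A region at 52221038 to 52221944, 2465 bp from Hoxa7 and 1153 bp from Hoxa9, held listed peaks in HSC replicate 1 (fold 47.0, rank 2969) and LSC replicate 1 (fold 50.1, rank 6908). Next to it, 52220082 to 52220837 held peaks in the same libraries (folds 22.4 and 26.5). Neither region overlapped a peak of a replicate 2 library, but a weak LSC replicate 2 peak (fold 6.56) lay at 52221971 to 52222423, just past the end of the first. The listed peaks at this site were thus in 1 library of each cell type, both of replicate number 1. The replicate 1 libraries also had 91.8 and 94.2 Y chromosome peaks per 10000, beside 0.561 and 1.24 in replicate 2, and the labels used here do not give the sex of the mice. The part of any difference between the replicate numbers in these sites was not tested.

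Hoxa3 (52169059 to 52213067), an anterior gene whose body spans Hoxa4, Hoxa5 and Hoxa6, had 3, 5, 10 and 1 peaks. Its strongest peaks had folds of 24.9, 12.2, 64.1 and 8.89, of which those of HSC replicate 1 (rank 16265, at the gene's start) and LSC replicate 1 (rank 4056, inside the gene) were listed. The 1 peak of LSC replicate 2 was also counted for Hoxa4. Hoxa11 had folds of 21.6, 10.1 and 7.41 in HSC 1, LSC 1 and LSC 2. Hoxa2, Hoxa4, Hoxa5, Hoxa6 and Hoxa13 had peaks in 1 or 2 libraries each, none listed, with strongest folds from 3.56 to 19.2. At the far end of the cluster, 3 listed peaks of LSC replicate 2 lay beyond Hoxa11. That at 52263850 to 52264523 (fold 19.7), in Hottip, a noncoding RNA gene beside Hoxa13, overlapped a peak of LSC replicate 1 that was not listed there (fold 17.0, with the same summit pileup of 92) and no HSC peak. The listed peak at 52248935 to 52249382 (fold 33.9, rank 2652) was found in LSC replicate 2 alone.

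**Figure D4:**
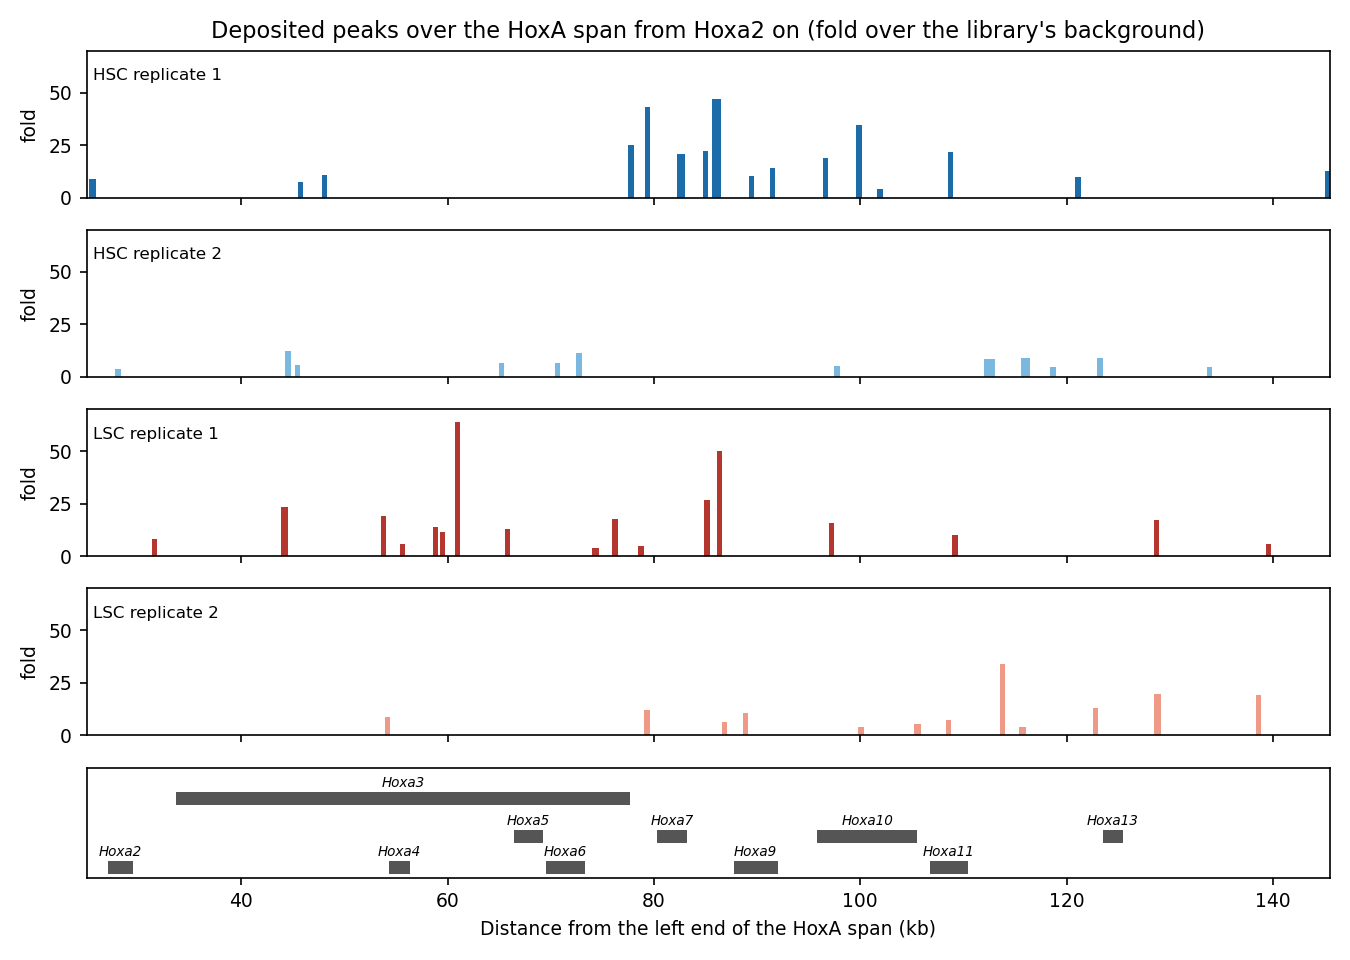
Deposited peaks over the HoxA span from Hoxa2 on, with 1 panel per library; the x axis is the distance in kb from the left end of the span and the y axis the authors' fold, and grey bars below are the genes. The replicate 1 panels share the site between Hoxa7 and Hoxa9 with folds of 47.0 and 50.1.

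In the HoxB cluster, Hoxb4, known to expand stem cells when overexpressed, and Hoxb5, a marker of long-term stem cells, each had a single peak, in LSC replicate 1 (folds 4.58 and 6.77, ranks 195169 and 162875). Neither had a peak in either HSC library. Hoxb3 (chromosome 11, 96307101 to 96347930), whose body spans Hoxb4, had 6, 3, 4 and 1 peaks with strongest folds of 17.5, 5.99, 30.6 and 7.20, and the third of these was listed. Hoxb6 had a listed peak in LSC replicate 1 (fold 28.7, rank 19177), a weak one in HSC replicate 2 (fold 4.49) and none in the other two. Hoxb7, Hoxb8 and Hoxb13 each had peaks in HSC replicate 2 and both LSC libraries, with strongest folds of 4.49, 12.4 and 11.0 for Hoxb7, 4.87, 9.52 and 5.93 for Hoxb8 and 9.17, 8.05 and 4.66 for Hoxb13. None of these was listed. In HSC replicate 1, Hoxb3 was the only HoxB gene with a peak, against 7, 7 and 5 of 10 in the others. Hoxb1, Hoxb2 and Hoxb9 had 1 peak each, with folds of 11.4, 4.49 and 9.54. The Hox span peak that ranked highest within its own list lay at 96356380 to 96356700, 2360 bp beyond Hoxb2 on the side of Hoxb1. It was found in LSC replicate 1 (fold 88.9, pileup 485, rank 1303) and overlapped no peak of another library.

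In the HoxC cluster, Hoxc4 (chromosome 15, 103018097 to 103036856) had a peak in every library, with folds of 9.57, 10.1, 57.1 and 12.5. The peak of LSC replicate 1 (rank 5385) was listed. Hoxc6 had 2, 4, 0 and 3 peaks, and the region at 103002867 to 103003680 inside it held peaks in both HSC libraries and LSC replicate 2 (folds 16.1, 5.43 and 13.8). At the end of Hoxc5 that faces Hoxc4, peaks of HSC replicate 2 and LSC replicate 2 overlapped (folds 10.1 and 12.5). Hoxc9 to Hoxc13, the posterior genes, had peaks in 1 or 2 libraries each with strongest folds from 5.80 to 16.4.

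In the HoxD cluster, whose posterior genes pattern limbs and digits, Hoxd3 (chromosome 2, 74711993 to 74748271) had 3, 5, 2 and 1 peaks. It was the only Hox gene with a listed peak in both HSC libraries (folds 41.3 and 13.1, ranks 4884 and 16957) and in neither LSC library. Of all genes 2.09% had that pattern, so 1 of 39 is a count near the background. Hoxd3 is also long (36279 bp), and window length also sets this trait. The HSC peaks lay apart, at 74732179 to 74732504 and 74745868 to 74746592, and the first overlapped at its edge a peak of LSC replicate 1 that was not listed (fold 24.5, rank 27302). Hoxd9 and Hoxd11 had peaks in 3 libraries each, with strongest folds of 5.19, 6.74 and 6.14 (HSC replicates 1 and 2 and LSC replicate 2) and of 15.6, 7.11 and 6.59 (HSC replicates 1 and 2 and LSC replicate 1). Hoxd13 had 2 peaks in HSC replicate 2 and 3 in LSC replicate 1, with strongest folds of 10.7 and 19.2 that overlapped 505 bp from the gene. Hoxd4, Hoxd8, Hoxd10 and Hoxd12 had peaks in 1 or 2 libraries, with strongest folds from 4.49 to 8.97.

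Peaks of any strength separated the cell types at 2 genes, named here after their values were seen. Hoxa4 had a peak in both LSC libraries and in no HSC library (folds 19.2 and 8.89, not overlapping), which 1.41% of all genes did. Hoxc13 had one in both HSC libraries and in no LSC library (folds 8.75 and 5.80, not overlapping), as did 1.30% of all genes. At 1 of 39 genes each, these are counts near the background.

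Merging the peaks of the 4 libraries gave 194 regions in the Hox spans. Of these 164 (84.5%) were found in a single library, 28 (14.4%) in 2, 2 (1.03%) in 3 and 0 in all 4, beside 84.2, 12.8, 2.37 and 0.595% of 721154 regions over the genome. Of the 2 found in 3 libraries, 1 lay inside Hoxc6. Recurrence in the Hox spans was thus close to that of peaks elsewhere. The HSC libraries had 5 regions in common (11.9 and 6.85% of their regions in the spans) and the LSC libraries 3 (4.84 and 6.12%), while the 4 pairs of 1 HSC and 1 LSC library had 5 to 8. Regions in both LSC libraries and no HSC library numbered 3, of which that in Hottip ranked highest in each LSC library. Those in both HSC libraries alone also numbered 3, at Hoxa3, at Hoxb3 and near the outer edge of the HoxA span. Genome values for these pairs and patterns are not given here, so whether the counts differ from the background cannot be told.

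MicroRNA genes lie among the Hox genes, with copies in several clusters, and repress Hox mRNAs among others. Mature sequences from RefSeq (GRCm38.p6) are shown to make the shared seeds visible, with the seed, bases 2 to 8, in capitals.
mmu-miR-196a-5p: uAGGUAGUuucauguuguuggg
mmu-miR-196b-5p: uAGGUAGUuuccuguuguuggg
mmu-miR-10a-5p: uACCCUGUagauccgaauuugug
mmu-miR-10b-5p: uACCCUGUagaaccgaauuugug
The miR-196 genes lie between paralogue groups 9 and 10 or near group 9 and share the seed AGGUAGU, and the miR-10 genes lie near group 4 and share ACCCUGU. Mir196b, in HoxA, Mir196a-1, in HoxB, Mir615, in HoxC, and Mir10b, in HoxD, had no deposited peak within 1 kb in any library. Mir10a had 2 in LSC replicate 1 alone, which are also counted for Hoxb3 and include its listed peak. Mir196a-2 had 1 in LSC replicate 2 alone. Shares over all microRNA genes are not given here, so whether these counts differ from the background cannot be told.

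Hox proteins bind DNA together with TALE homeodomain partners, and caudal genes switch Hox genes on. A list of 16 such genes and the even-skipped genes beside the clusters had a peak at 14, 14, 12 and 15 members and a listed peak at 6, 9, 8 and 8, beside the percentages over all genes given above. Several are very long, and per 100 kb of window the list held 8.72, 11.5, 11.1 and 9.63 peaks. Meis1 (chromosome 11, 139 kb), the MLL-fusion target that acts with Hoxa9, had 18, 14, 31 and 12 peaks, of which 3, 1, 5 and 2 were listed. The strongest had folds of 36.1, 14.6, 64.1 and 21.6. Meis1 was thus listed in every library, as were 11.3% of all protein-coding genes and no Hox gene. Its 139 kb compare with a median Hox window of 5.74 kb, and window length also sets this trait. Pbx3 (chromosome 2, 201 kb), a further partner of Hoxa9 in leukaemia, was also listed in every library, with folds of 31.7, 40.8, 91.3 and 24.1. In HSC replicate 2 and LSC replicate 1 the strongest Pbx3 peak lay just outside the annotated gene, past its higher coordinate of 34372045. Pknox1, Pknox2 and Tgif1 were listed in every library too, and at Tgif1 (9.33 kb) the folds were 29.5, 18.2, 95.3 and 71.4. Pbx4 was listed in HSC replicate 2 and both LSC libraries (folds 17.2, 55.5 and 34.3). Meis2 (fold 15.2) and Cdx1 (fold 15.2) were listed in HSC replicate 2 alone, Pbx2 (fold 29.3) and Tgif2 (fold 41.2) in LSC replicate 1 alone, and Cdx4 (fold 20.1) in LSC replicate 2 alone. Evx1, Evx2, Cdx2 and Meis3 had no listed peak.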

How the data were processed

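CUT&Tag peaks of 2 HSC and 2 LSC libraries were analysed from 4 peak lists, 1 per library. Per the submitters' processing notes, Bowtie2 2.2.9, FastQC 0.11.5, MACS2 and ChIPseeker were used on mm10, with settings not given in the sources read. Each deposited list gives, per the narrowPeak layout of the authors' caller, a score, a fold (the ratio of pileup to background) and -log10 p and q values. The members and lists were chosen with earlier results of these data known.

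Only chromosomes 1 to 19, X and Y were used, and peaks were ranked by -log10 p. A peak counted for a gene if it overlapped the body plus 1 kb by at least 1 bp, with coordinates from RefSeq (GRCm38.p6). Relative density is peaks per base of a span divided by that of the genome, taken as 2722.5 Mb. Exact permutation tests, two-sided, compared clusters within libraries and LSC with HSC, with Benjamini-Hochberg adjustment. The labels do not say that libraries came from separate animals, so p-values measure only the spread between these libraries. Values were given for each Hox gene with a listed peak or with peaks in at least 3 libraries, for Hoxa7, Hoxa9, Hoxa10, Hoxb3, Hoxb4, Hoxb5, Meis1 and Pbx3, and for each cofactor gene with a listed peak, with some of these genes not reported here. Alternatives were other list lengths, gene windows, spans, ranking by fold, summits, covered bases, a replicate block and leaving out each library. Windows at gene ends and promoters with listed peaks only were added after the data were seen. The counting of peaks in gene windows was checked on simulated peak lists. Python 3.11.15, numpy 2.4.6, pandas 2.3.3, scipy 1.17.1 and matplotlib 3.10.9 were used. Differences in list length limit the comparison of any peak between libraries.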

Additional observations from a re-analysis of the deposited data

How the results depend on the processing

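Of 162 values under alternatives, 33 moved beyond their limits, 7 changed sign and 1 fell to 0, and the cause was not tested except where a shorter list or window gives fewer peaks by construction. With the 100000 strongest peaks, which makes the lists equally long, a peak lay at 10 and 11 Hox genes in HSC replicates 1 and 2. In LSC replicates 1 and 2 it lay at 10 and 9. Shares over all genes at this list length, and for the 10000, 40000 and 3 kb settings below, are not given here. Genes with a strong peak numbered 0 in HSC replicate 2 and 2 in LSC replicate 1 among the 10000 strongest, and 6 in HSC replicate 2 and 2 in LSC replicate 2 among the 40000 strongest. With 3 kb flanks they numbered 2, 8 and 1 in HSC replicate 2, LSC replicate 1 and LSC replicate 2. At gene ends LSC replicate 1 had 13 genes with any peak, and listed peaks lay at 2, 0 and 0 genes in HSC replicates 1 and 2 and LSC replicate 1. Over the 20000 strongest peaks the mean relative densities of HoxA to HoxD were 2.10, 0.636, 0.437 and 0.497. Cofactor genes with a peak then numbered 6, 9 and 8 in HSC replicates 1 and 2 and LSC replicate 2. Hox promoter windows with a listed peak numbered 2 of 24 (8.33%) in HSC replicate 1. They numbered 0 in HSC replicate 2, LSC replicate 1 and LSC replicate 2. Over all promoter windows the listed shares were 5.80, 19.6, 6.43 and 19.7% in HSC 1, HSC 2, LSC 1 and LSC 2.

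LSC minus HSC for HoxA was 0 over the 100000 strongest peaks and 0.47 over the 20000 strongest, and ran from -0.65 to 0.54 leaving out 1 library. For HoxC it was 0.087 and 0.87, and ran from -0.33 to 0.11. For HoxD it ran from -0.76 to 0.098 and for HoxB from 0.11 to 0.62. Hox genes with a peak in both LSC libraries alone numbered 0 among the 20000 strongest and 2 to 5 leaving out 1 library, and those in both HSC libraries alone 0 among the 100000 strongest and 1 to 6. HoxA exceeded HoxB by 0.20 to 0.65, HoxC by 0.37 to 0.77 and HoxD by 0.18 to 0.86 leaving out 1 library.

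The labels give both groups replicate numbers 1 and 2 and do not say what a number marks. Same-numbered libraries had similar shares of Y chromosome peaks and of genes with a listed peak at an end, while their deviations in density had a correlation of 0.0952 over 17688 tiles, so they were not treated as pairs. With the replicate block the differences were -0.06, 0.37, -0.11 and -0.33 for HoxA to HoxD, with exact permutation p of 1, 0.500, 1 and 1, where 0.500 is the smallest possible, and no call changed.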
